A study of Mus musculus with 3 samples.

Results

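Foxp3+ T cells in the pancreatic islets of NOD (non-obese diabetic) mice were chosen by their own transcripts: a cell counted as one when it carried at least 1 Foxp3 transcript and at least 1 Cd3d, Cd3e or Cd3g transcript, no Cd8a or Cd8b1 transcript and at most 1 transcript of the B-cell gene Cd79a. Of 26947 cells in 3 libraries, 26142 had at least 1000 transcripts, counted as unique molecular identifiers (UMIs), with under 10% of them mitochondrial, and 1150 of these met the rule (251, 366 and 533 in replicates 1, 2 and 3). The libraries are single-cell RNA sequencing of live CD45+ leukocytes sorted from islets of female wild-type NOD mice, with no treatment named, a strain that develops autoimmune diabetes. Per the methods the mice were 15 to 16 weeks old and the islets of 2 to 3 mice were pooled per library, so each library is a pool and the 3 form 1 group with no other condition. No transgene, deletion or reporter marks the cells. The total counts were 33851381, 74775394 and 80806452 UMIs in replicates 1, 2 and 3. Between libraries 59 barcodes were shared by a pair of libraries, and 9 of the Foxp3+ cells carried such a barcode, none of them Foxp3+ in both libraries.

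Regulatory T cells are CD4 T cells that hold back immune responses, and the transcription factor Foxp3 sets and maintains their program. They depend on interleukin 2, which they bind with a high-affinity receptor containing CD25 (Il2ra), and they restrain other cells through CTLA-4, through inhibitory cytokines and by consuming interleukin 2. Loss of Foxp3 causes fatal autoimmunity, and in NOD mice regulatory T cells are known to delay diabetes.

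Foxp3+ cells were 8.13% of the T cells in replicate 1 (exact 95% interval 7.19 to 9.15%), 5.77% in replicate 2 (5.21 to 6.37%) and 6.09% in replicate 3 (5.60 to 6.62%), with a mean of 6.66% ± 1.28 (SD, n = 3). By this rule the share of T cells was highest in replicate 1, whose interval lies above those of replicates 2 and 3. Of all cells kept, Foxp3+ cells were 4.37% ± 0.387 (SD, n = 3), with replicate 3 the highest (4.38, 3.98 and 4.75%). Of Foxp3+ and Foxp3- Cd4 T cells together they were 17.9% ± 3.99 (SD, n = 3). The intervals cover counting error only. These shares depend on how many transcripts a cell yielded: when every cell was first thinned to 2000 UMIs, the mean share of T cells was 3.99%. Replicate 1 was still the highest after thinning (5.07, 3.32 and 3.59% in replicates 1, 2 and 3). With at least 2 Foxp3 UMIs required and no thinning, the mean share was 3.38%. Replicate 1, the library with the fewest UMIs per cell, was then the lowest (3.30, 3.37 and 3.46% in replicates 1, 2 and 3).

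The Foxp3+ cells were compared with 2 other populations of the same libraries. The Foxp3- Cd4 T cells carried at least 1 Cd4 UMI, no CD8 UMI and no Foxp3 UMI (866, 2003 and 2869 cells), and the CD8 T cells carried a CD8 UMI and neither Cd4 nor Foxp3 (785, 1646 and 2108 cells). A cell in which no Foxp3 transcript was captured falls among the Foxp3- cells by this rule. The median depth of the Foxp3+ cells was 3964, 6368.5 and 6386 UMIs per cell in replicates 1, 2 and 3, and that of the Foxp3- Cd4 T cells was 3984.5, 6010 and 5251. Foxp3+ cells held more genes per cell, with medians of 1662, 2144 and 2109 against 1584.5, 1832 and 1687.

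Foxp3 itself (chrX:7573644-7595245, mm10) stood at 290, 293 and 288 CPM (the UMIs of a gene, scaled to an equal total for each sum) in the summed Foxp3+ cells of replicates 1, 2 and 3. This near-equal level describes the choice of cells and is not a result. A single Foxp3 UMI placed 531 of the 1150 cells (46.2%) in the population, 260 carried 2, 156 carried 3, 88 carried 4 and 115 carried 5 or more, up to 17 in 1 cell. Just inside the limit are thus the 531 cells with 1 UMI, and just outside it are the 5738 Foxp3- Cd4 T cells with none. A Cd4 UMI was present in 49.4, 63.7 and 63.0% of the Foxp3+ cells of replicates 1, 2 and 3.

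The label was checked against the other 3 regulatory T cell markers, which the rule did not use. All 3 were higher in the Foxp3+ cells of every library than in the Foxp3- Cd4 T cells of any library. Ikzf2 (chr1:69531214-69687245), which encodes the Ikaros-family factor Helios, stood at 1317, 1110 and 1024 CPM in the Foxp3+ cells of replicates 1, 2 and 3 and at 318, 160 and 153 in the Foxp3- Cd4 T cells. On the log2 scale it was higher by 2.46 ± 0.144 (SE of the fold change; edgeR quasi-likelihood test, adjusted p = 2.20e-06). Ctla4 (chr1:60887000-60915832), the inhibitory receptor that takes CD80 and CD86 from antigen-presenting cells, stood at 850, 707 and 638 CPM against 385, 247 and 224. Its log2 fold change was 1.31 ± 0.0842 (edgeR, adjusted p = 4.67e-06). Il2ra (chr2:11642807-11693193) stood at 78.4, 51.3 and 48.9 CPM against 22.3, 6.03 and 8.09, a log2 fold change of 2.42 ± 0.210 (edgeR, adjusted p = 3.13e-05). For all 3 genes replicate 1 was the highest library in both populations. Levels are of 3' transcript counts and are compared here within a gene and not between genes.

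Against CD8 T cells, which share the Foxp3+ sums with the comparison above, the same 3 genes were also higher. The log2 fold changes were 2.60 for Ikzf2, 2.27 for Ctla4 and 3.46 for Il2ra.

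**Figure D1:**
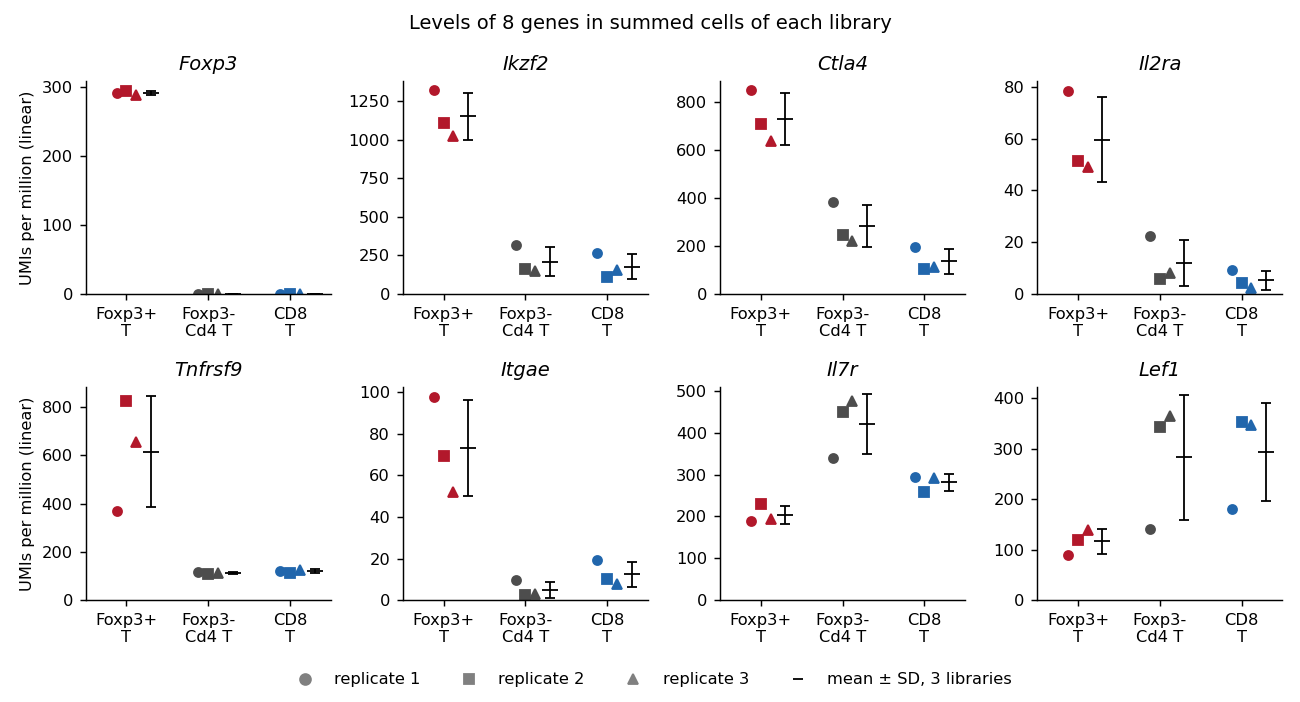
CPM (linear axes from 0) of 8 genes in the summed Foxp3+ T cells, Foxp3- Cd4 T cells and CD8 T cells of each library; symbols are the 3 replicates and the black mark is the mean ± SD. Ikzf2, Ctla4, Il2ra, Tnfrsf9 and Itgae were higher in every Foxp3+ sum than in any other sum, and Il7r and Lef1 were lower in every Foxp3+ sum; Foxp3 is 0 in the other populations by their definition.

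The cells with a single Foxp3 UMI were set beside those with more, as a description. Ikzf2 stood at 1021 ± 254 CPM (SD, n = 3) in cells with 1 Foxp3 UMI, at 1271 ± 220 with 2 and at 1172 ± 58.5 with 3 or more, against 210 ± 93.2 in Foxp3- Cd4 T cells. Ctla4 stood at 685 ± 108, 781 ± 305 and 739 ± 50.9 against 285 ± 87.1. The 1-UMI cells thus lay near the other Foxp3+ cells for both genes and away from the Foxp3- cells. Tcf7, a factor of naive and memory T cells, lay at 93.2 ± 4.44, 65.9 ± 27.2 and 46.7 ± 30.4 against 166 ± 23.5, and Il7r, the receptor for interleukin 7, at 208 ± 23.6, 226 ± 26.5 and 170 ± 70.3 against 421 ± 72.2. Ccr7, the lymph-node homing receptor, had 712 ± 101, 732 ± 61.5 and 618 ± 252 against 615 ± 81.5, so that all 4 classes overlapped.

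**Figure D2:**
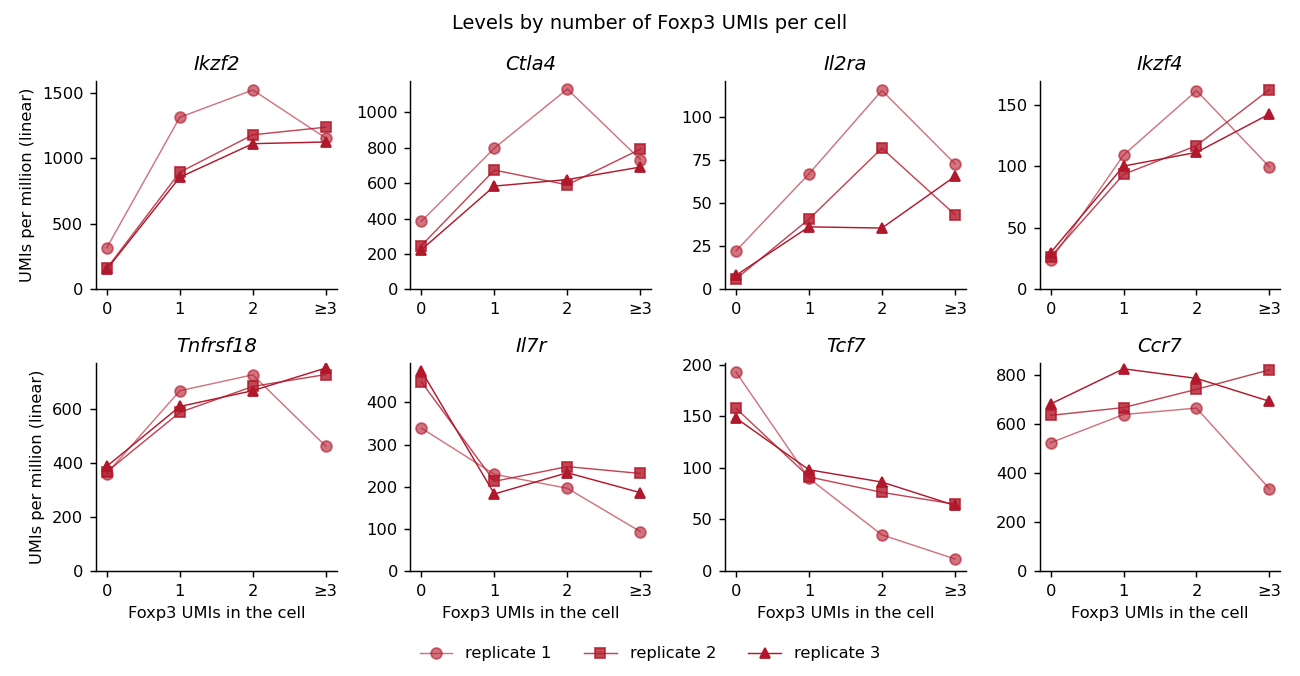
CPM (linear axes from 0) of 8 genes against the number of Foxp3 UMIs in the cell, where 0 stands for the Foxp3- Cd4 T cells and each line is 1 replicate. The step from 0 to 1 Foxp3 UMI was larger than the steps beyond it for Ikzf2 (means of 210, 1021, 1271 and 1172) and for Il7r (421, 208, 226 and 170), while Ccr7 showed no such step.

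Across 10587 genes tested between Foxp3+ and Foxp3- Cd4 T cells, 974 were higher in Foxp3+ cells (9.2% of the genes tested) and 748 were lower (7.07%) by edgeR's quasi-likelihood test on summed UMIs with the library as a block. Of these, 287 higher and 137 lower genes changed at least 2-fold. The number of calls moved with the libraries: without replicate 3 it was 467 in place of 1722 and without replicate 2 it was 870, and 406 of the 1722 genes were called whichever replicate was left out. With no replicate block 168 genes were called.

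Among genes at 50 CPM or more, the largest increase was in Itgae (chr11:73090583-73147446), the integrin CD103 that binds E-cadherin on epithelial cells. It stood at 97.5, 69.5 and 52.2 CPM in the Foxp3+ cells and at 9.57, 2.47 and 3.23 in the Foxp3- Cd4 T cells, with a log2 fold change of 3.97 ± 0.190 (edgeR, adjusted p = 7.30e-07). Every Foxp3+ sum lay far above the highest Foxp3- sum. The transcripts were spread over 278 Foxp3+ cells.
The next genes were Tmem158 (log2 fold change 2.87), Lamc1 (2.82), which encodes a laminin chain, Lyz2 (2.74), Il1rl1 (2.72), Lrrc32 (2.63), Ikzf2, Il2ra, Neb (2.39) and Tnfrsf9 (2.35).
Lyz2, the macrophage lysozyme, was not like the others. It stood at 5.65, 203 and 52.6 CPM in the Foxp3+ cells against 2.98, 3.20 and 27.8, so the groups overlapped. Its 876 UMIs lay in 20 of the 1150 Foxp3+ cells, 265 of them in 1 cell.
Lrrc32 encodes GARP, which holds latent TGF-beta on the surface of regulatory T cells. It stood at 113, 168 and 167 CPM against 33.8, 19.2 and 21.4 (edgeR, adjusted p = 1.15e-05), with no overlap.
Tnfrsf9 encodes the costimulatory receptor 4-1BB. It stood at 369, 823 and 653 CPM in Foxp3+ cells against 118, 109 and 111 in Foxp3- Cd4 T cells (edgeR, adjusted p = 1.15e-05). The Foxp3- cells of all 3 libraries lay close together, and the Foxp3+ cells of replicate 1 had the lowest of the 3 Foxp3+ levels.

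Among genes at 50 CPM or more in the Foxp3- Cd4 T cells and lower in all 3 libraries, the 10 with the largest decrease were Spp1 (log2 fold change -2.60), Shld1 (-2.37), Ccl4 (-2.01), Tnfsf11 (-1.95), Themis (-1.84), Pde3b (-1.63), Ppp2r3a (-1.61), Gzmk (-1.47), Gtf2i (-1.38) and Lef1 (-1.36). Spp1, the cytokine osteopontin, and Ccl4, a chemokine, overlapped between the groups, and the 75 Spp1 UMIs of the Foxp3+ cells lay in 7 cells. Shld1, a subunit of the shieldin complex of DNA repair, varied little between libraries: 12.7, 11.7 and 13.9 CPM in Foxp3+ cells against 60.0, 64.1 and 62.4 (edgeR, adjusted p = 6.18e-07). Themis, which encodes a signalling protein of the T-cell receptor pathway, stood at 6.36, 14.6 and 17.6 against 62.3, 47.3 and 45.2.

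Genes of regulatory T cell identity were higher as a group. Of 12 listed and tested genes, Foxp3 not among them, 11 were called higher and none lower, beside 9.2% of all genes, and the median log2 fold change was 1.92 against -0.0027 over all genes. Besides Lrrc32, Ikzf2 and Il2ra they included Gpr83 (2.33), a receptor of low level here at 4.94, 5.84 and 12.6 CPM against 2.76, 0.654 and 1.91. Izumo1r, the folate receptor 4 of regulatory T cells, had a log2 fold change of 1.23. The exception was Nrp1, a neuropilin often used to mark regulatory T cells from the thymus, at 38.8, 18.5 and 21.1 CPM against 46.8, 17.7 and 17.9 (log2 fold change -0.06 ± 0.199).

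Of 12 suppressive molecules 11 were tested, and 9 were higher and none lower, beside 9.2% and 7.07% of all genes. These are the shares to hold against the lists that follow for Foxp3+ against Foxp3- Cd4 T cells. The suppressive molecules had a median log2 fold change of 1.04. Gzmb, which encodes the protease granzyme B, had a log2 fold change of 2.28, with 39 of its 502 UMIs in 1 cell. Fgl2, a secreted fibrinogen-like protein, had 1.86 and Areg, the tissue-repair factor amphiregulin, had 1.84. Il10, the inhibitory cytokine, stood at 53.7, 81.5 and 47.2 CPM against 18.9, 16.5 and 15.5 (log2 fold change 1.76 ± 0.157, edgeR, adjusted p = 3.57e-05). The Il10 transcripts lay in 151 of the 1150 Foxp3+ cells, 64 of the 544 UMIs in 1 cell.

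The genes of effector and tissue regulatory T cells gave 16 higher and none lower of 19 tested, with a median log2 fold change of 0.82. Itgae led them, followed by Klrg1 (3.36), an inhibitory lectin receptor, Il1rl1 (2.72) and Tnfrsf8 (2.51), which encodes CD30. Klrg1 and Tnfrsf8 rested on few transcripts, 79 and 32 UMIs in all Foxp3+ cells. Il1rl1 (chr1:40429570-40465415) encodes ST2, the receptor for the alarmin interleukin 33. It stood at 33.9, 77.6 and 49.99 CPM against 8.51, 8.21 and 7.33 (edgeR, adjusted p = 2.93e-06), and 111 Foxp3+ cells carried it.

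Genes of resting and naive T cells went the other way: of 13 tested, 9 were lower and none higher, beside 7.07% of all genes, with a median log2 fold change of -0.92. Lef1 and Tcf7, the factors that maintain naive and memory T cells, had log2 fold changes of -1.36 and -1.22, Il7r had -1.14 and Igfbp4 had -1.96. Lef1 stood at 90.4, 119 and 139 CPM against 141, 343 and 364 (edgeR, adjusted p = 7.67e-05). Replicate 1 was the lowest in both groups, and its Foxp3- level lay just above the highest Foxp3+ level. Il7r stood at 190, 229 and 194 against 339, 449 and 475 (edgeR, adjusted p = 4.25e-05). The homing receptor Ccr7 did not pass the test, at 572, 753 and 762 CPM against 525, 637 and 683.

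The promoters of Il1rl1 and Tcf7 are shown because these genes, one higher and one lower in Foxp3+ cells, were those of the 69 called genes named by rule for this comparison (49 with a listed window) whose promoter held a forkhead core motif, the letters that forkhead proteins such as Foxp3 are known to bind. Ltb and Pim1, named below after their values were seen, held it as well. The windows are from RefSeq (GRCm38.p6), 250 bases before to 50 bases after the start of a transcript, and the capitals mark the motif, TGTTTAC or its reverse complement GTAAACA. Il1rl1 is at chr1:40439379-40439678 (+ strand) and Tcf7 at chr11:52282546-52282845 (- strand). Both windows lie inside the genes, that of Il1rl1 far from its outer start at chr1:40429570 and that of Tcf7 near its own at chr11:52283014. Counts of 3' transcript ends do not show which start these cells used.
Il1rl1: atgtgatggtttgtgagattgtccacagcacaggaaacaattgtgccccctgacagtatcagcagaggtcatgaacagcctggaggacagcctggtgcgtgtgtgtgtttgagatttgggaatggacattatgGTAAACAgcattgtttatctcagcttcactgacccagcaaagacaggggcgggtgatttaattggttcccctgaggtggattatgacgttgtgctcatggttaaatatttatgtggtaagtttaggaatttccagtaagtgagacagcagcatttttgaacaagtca
Tcf7: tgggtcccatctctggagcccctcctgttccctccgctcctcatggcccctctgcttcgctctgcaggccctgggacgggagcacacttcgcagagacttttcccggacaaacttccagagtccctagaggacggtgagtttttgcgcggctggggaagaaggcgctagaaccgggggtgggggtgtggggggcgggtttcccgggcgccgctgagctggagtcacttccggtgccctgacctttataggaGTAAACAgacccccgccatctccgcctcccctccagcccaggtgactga
Of all 32851 windows listed, 3.65% held the motif. For the genes in the fit it was 2.67% of 10538 windows, for the genes higher in Foxp3+ cells 1.93% of 982 and for the lower genes 3.04% of 724. The 2 windows listed for Foxp3 itself held none. A match of letters is a description and was not tested as a binding site.

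Among helper cytokines and the CD40 ligand, 7 of 16 genes were too low to test and 9 were in the fit. Of these, 5 were lower in Foxp3+ cells: Il21 (log2 fold change -3.57), Ifng (-2.08), Tnfsf11 (-1.95), Cd40lg (-1.64) and Tnfsf8 (-0.98). Ltb, which encodes lymphotoxin beta, was higher (0.37). Ifng, the cytokine interferon gamma, stood at 12.0, 11.7 and 5.22 CPM in Foxp3+ cells against 62.7, 31.1 and 26.3 in Foxp3- Cd4 T cells (edgeR, adjusted p = 3.15e-05). Il21, the cytokine of helper cells for B cells, was carried by 4 of the 1150 Foxp3+ cells. Tnfsf11 encodes RANK ligand and stood at 16.9, 19.5 and 15.0 against 124, 52.5 and 46.3, with the highest Foxp3- level in replicate 1.

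Among genes that mark polarized T cells, 5 of 10 tested were higher, beside 9.2% of all genes, and 1 was lower, near the 7.07% of all genes. Among them Ccr6 (log2 fold change 1.65), Gata3 (0.79), Ifngr1 (0.54) and Cxcr3 (0.44) were higher, and Il12rb2 was lower (-0.58, adjusted p = 0.0447 by edgeR). The Il12rb2 call was lost whichever replicate was left out, and with cells thinned before the gates its value was 0.38. Gata3, the factor of type 2 helper cells that regulatory T cells in tissue also use, stood at 106, 121 and 110 CPM against 68.7, 58.2 and 59.7.

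Interleukin 2 signalling genes were higher in 4 of 14 tested, beside 9.2% of all genes, and lower in 1, near the 7.07% of all genes. The receptor chains Il2ra (2.42) and Il2rb (0.80), the STAT5 target Cish (1.03) and the kinase Pim1 (0.36) were higher, and Socs3, a feedback inhibitor of cytokine signalling, was lower (-0.74). Il2rb stood at 262, 368 and 303 CPM against 167, 183 and 154 (edgeR, adjusted p = 5.87e-04).

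Of 11 costimulatory receptors, 7 were higher and 1, Cd28 (-0.33), was lower, the latter near the 7.07% of all genes. Tnfrsf9 led, followed by Tnfrsf4 (0.84), which encodes OX40, Tnfrsf18 (0.74), which encodes GITR, and Tnfrsf1b (0.72), the TNF receptor 2. Tnfrsf4 stood at 1309, 1396 and 1384 CPM in Foxp3+ cells against 814, 658 and 703 (edgeR, adjusted p = 4.76e-03). The inhibitory receptors gave 5 higher and none lower of 11: Ctla4 (1.31), Tigit (0.67), Havcr2 (0.65), Cd5 (0.50) and Lag3 (0.34). Tigit, the receptor for CD155, stood at 48.0, 35.1 and 24.3 CPM against 31.5, 21.7 and 12.2. Foxp3+ cells were higher in each library and the groups overlapped (log2 fold change 0.67 ± 0.160, edgeR, adjusted p = 1.50e-02). Pdcd1, which encodes PD-1, stood at 169, 322 and 302 against 142, 201 and 216 and did not pass the test (log2 fold change 0.42 ± 0.197, edgeR, adjusted p = 0.18).

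Of 20 genes tested for chemokine receptors and homing, 8 were higher, beside 9.2% of all genes, and 2 lower, near the 7.07% of all genes. Ccr4 (1.94), Ccr2 (1.86) and Ccr6 (1.65) led after Itgae. Ccr2, the receptor for the monocyte chemoattractant CCL2, stood at 112, 122 and 112 CPM against 33.8, 27.0 and 30.1 (edgeR, adjusted p = 1.94e-06), and the libraries of each population lay close together. The sphingosine receptor S1pr1, which guides exit from tissue, was lower (-0.99).

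NF-kB genes were higher in 6 of 12 tested and none was lower. Rel (0.72), Traf1 (0.69), Nfkb2 (0.57) and Bcl3 (0.56) had the largest changes. Without replicate 3 only 1 of the 12 was called. Antigen receptor response genes showed 1 higher, Cd5 (0.50), and 1 lower, Nfatc1 (-0.87), of 12, near the 9.2% and 7.07% of all genes. Of 19 transcription factors that work with Foxp3, 5 were higher and 5 lower. The higher ones were Ikzf2 (2.46), Ikzf4 (2.09), Gata3 (0.79), Rel (0.72) and Foxo1 (0.40), and the lower ones Eomes (-1.84), Nfatc1 (-0.87), Bach2 (-0.70), Ikzf1 (-0.52) and Satb1 (-0.37). Ikzf4, which encodes the Ikaros-family factor Eos, stood at 117, 129 and 121 CPM against 23.4, 26.4 and 29.8 (edgeR, adjusted p = 7.30e-07).

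Cell cycle genes were higher in 10 of 14 tested and none was lower, led by Cdk1 (1.08), Rrm2 (0.97), Pclaf (0.95) and Mki67 (0.92). Mki67, a nuclear protein of dividing cells, stood at 124, 23.1 and 36.1 CPM in Foxp3+ cells against 87.2, 13.1 and 11.2, so that replicate 1 was far above the other libraries in both groups. No gene of the list was called higher when cells were thinned before the gates, under the study's cell limits (9 tested, 1 lower), when equal numbers of cells were compared or with no replicate block. Cells with UMIs of 2 or more of 8 cycle genes, after thinning, were 4.34% ± 4.63 (SD, n = 3) of Foxp3+ and 2.49% ± 3.28 of Foxp3- Cd4 T cells. By replicate the shares were 9.69, 1.64 and 1.70% against 6.27, 0.601 and 0.597%. They overlapped across libraries, with replicate 1 highest in both populations, and within each library the Foxp3+ share was the higher. Of 12 survival and death genes 5 were higher and none was lower, among them Bcl2l1 (1.05), Bak1 (0.68), Pmaip1 (0.53) and Casp8 (0.34). Bcl2l1, the anti-apoptotic Bcl-xL, stood at 22.6, 37.7 and 22.8 CPM against 11.5, 12.6 and 12.8 (edgeR, adjusted p = 7.11e-04). Immediate early and heat shock genes, which follow tissue dissociation, gave 1 call of 12, Ier2 (-0.37), near the 7.07% of all genes that were lower.

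**Figure D3:**
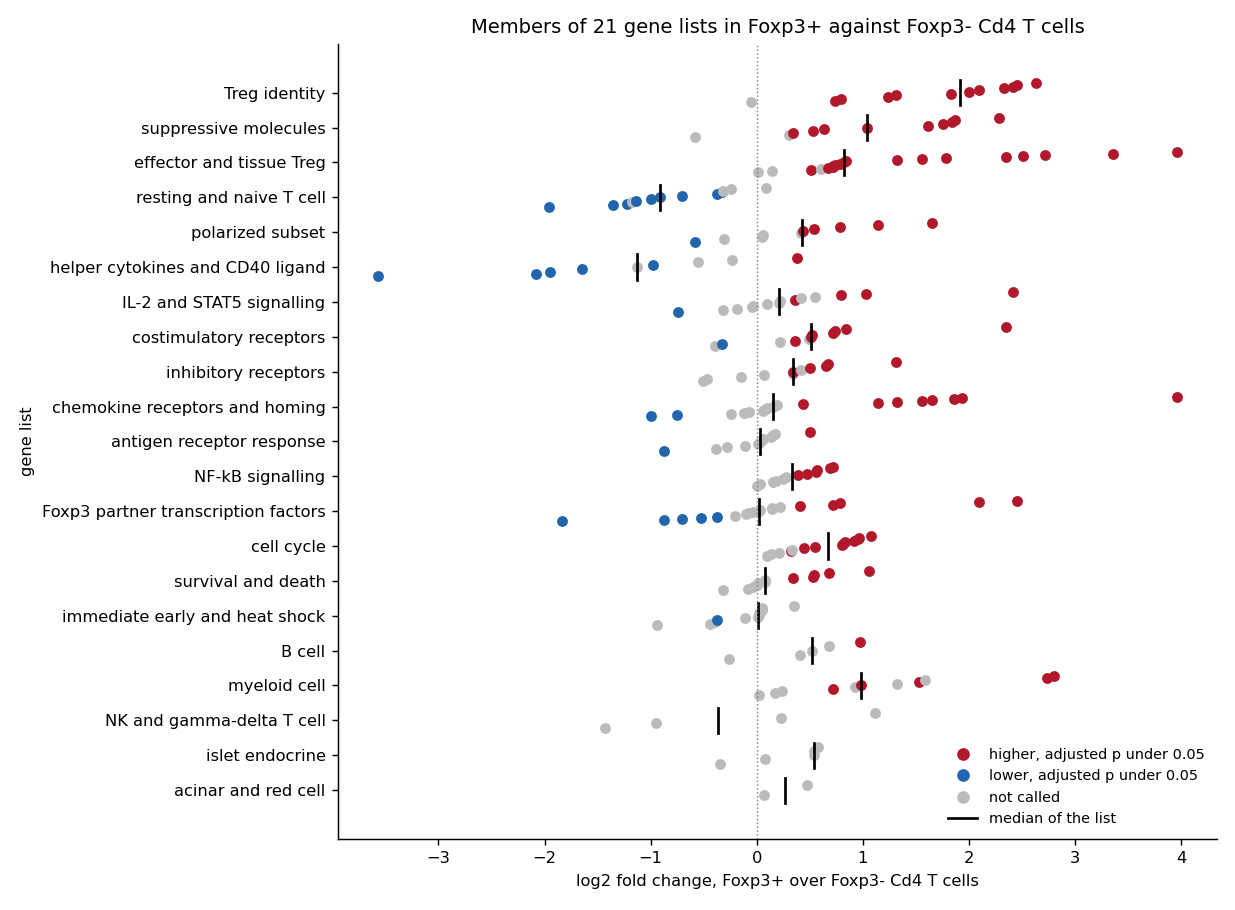
Log2 fold change of each tested member of 21 gene lists, Foxp3+ over Foxp3- Cd4 T cells; red points were called higher, blue lower and grey neither, and the black bar is the median of the list. The medians ranged from -1.13 for helper cytokines to 1.92 for regulatory T cell identity, and a gene in 2 lists appears in both.

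Markers of other cell types were measured in the same sums. Of 13 myeloid genes 11 were tested and 5 were higher in Foxp3+ cells: Siglech, Lyz2, Tyrobp, Fcer1g and Cd68. Their summed level was 85.4, 446 and 214 CPM in the Foxp3+ cells of replicates 1, 2 and 3 against 123, 40.1 and 112 in Foxp3- Cd4 T cells, with Lyz2 the most abundant over the 3 libraries together, at 35.4% of it, and no gene at 0 in all of them. In replicates 1 and 3 Tyrobp was above Lyz2, at 26.8 and 77.4 CPM against 5.65 and 52.6, and C1qa was at 0 in replicate 1. Among the 1150 Foxp3+ cells, 5 held 119 of the 121 UMIs of Siglech, a plasmacytoid dendritic cell gene. Cells with at least 2 UMIs of 10 B-cell and myeloid genes were 2.39, 5.46 and 5.44% of Foxp3+ cells and 1.96, 1.90 and 1.67% of Foxp3- Cd4 T cells. With those cells left out no myeloid gene was higher and 1 of 4 tested was lower, while the calls for regulatory T cell identity (11 of 12), effector and tissue genes (16 of 19) and resting genes (9 of 13 lower) had the same counts. The filter itself used Lyz2, Cd68, C1qa, C1qb, C1qc and Csf1r of the myeloid list. The loss of myeloid calls was thus set in part by the choice of cells. Without replicate 2 no myeloid gene was higher either, and 1 of 11 was lower.

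Of 8 B-cell genes 5 were tested and 1 was higher, Ighm, the immunoglobulin mu chain. It stood at 174, 160 and 160 CPM in Foxp3+ cells against 141, 62.9 and 58.0 (log2 fold change 0.98 ± 0.198, edgeR, adjusted p = 6.67e-03), and 606 of the 1150 Foxp3+ cells carried it, with at most 31 UMIs in 1 cell. Igkc, the kappa light chain, which is abundant in B cells, stood at 166, 131 and 81.9 against 363, 99.7 and 70.5 and did not pass the test. In the Foxp3- Cd4 T cells of replicate 1, where it was highest, 1 cell held 1197 of the 1705 Igkc UMIs and 1 cell held 264 of the 661 Ighm UMIs. The summed level of the 8 genes was 367, 313 and 259 CPM against 517, 176 and 142, with none at 0, and the 517 includes those single cells. None of the 4 NK and gamma-delta, 5 endocrine or 2 acinar and red cell genes tested was called, with summed levels of 21.6 ± 19.0, 55.1 ± 39.8 and 13.1 ± 7.12 CPM (SD, n = 3) for the whole lists in Foxp3+ cells, where 2 of the 9 acinar and red cell genes were at 0. The part of cell mixing in the calls beyond these values was not tested.

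Per cell, the same differences were seen as shares of cells with at least 1 UMI, after every cell was thinned to 2000 UMIs (1122 Foxp3+ and 5676 Foxp3- Cd4 T cells; 28 and 62 shallower cells left out). B cells, with at least 2 Cd79a UMIs and no Cd3 UMI, give the background of free RNA for genes that they lack, from 4302 cells. Ikzf2 was found in 73.4% ± 9.0 (SD, n = 3) of Foxp3+ cells, 19.8% ± 8.75 of Foxp3- Cd4 T cells and 0.343% ± 0.165 of B cells. Without thinning the first 2 shares were 86.3 and 30.0%. Ctla4 was found in 68.5% ± 6.76, 34.1% ± 9.18 and 1.49% ± 0.0254, and Tnfrsf9 in 49.98% ± 8.46, 13.8% ± 2.03 and 1.04% ± 0.188. Il2ra was found in 9.62% ± 2.81 of Foxp3+ cells and 1.53% ± 0.990 of Foxp3- Cd4 T cells, and the second share lies near the 1.12% ± 0.680 of B cells. Itgae was found in 13.4% ± 5.99 against 0.721% ± 0.526.

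Combinations were counted in the same thinned cells. At least 1 of Il2ra, Ctla4 and Ikzf2 was found in 89.2% ± 5.08 of Foxp3+ cells (986 of 1122) and in 44.4% ± 12.5 of Foxp3- Cd4 T cells, and all 3 together in 5.65% ± 3.52 and 0.350% ± 0.324. Cxcr3 or Tbx21, genes of type 1 helper cells, were found in 20.5% ± 2.55 and 14.1% ± 3.02, and Cxcr5 or Bcl6, genes of follicular cells, in 15.5% ± 1.80 and 11.8% ± 2.45. Il1rl1, Klrg1 or Ccr8 were found in 10.9% ± 2.60 and 2.62% ± 1.71. An exact two-sided sign-flip test over 3 paired libraries cannot go below 0.25, so these are given as a description with no p.

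**Figure D4:**
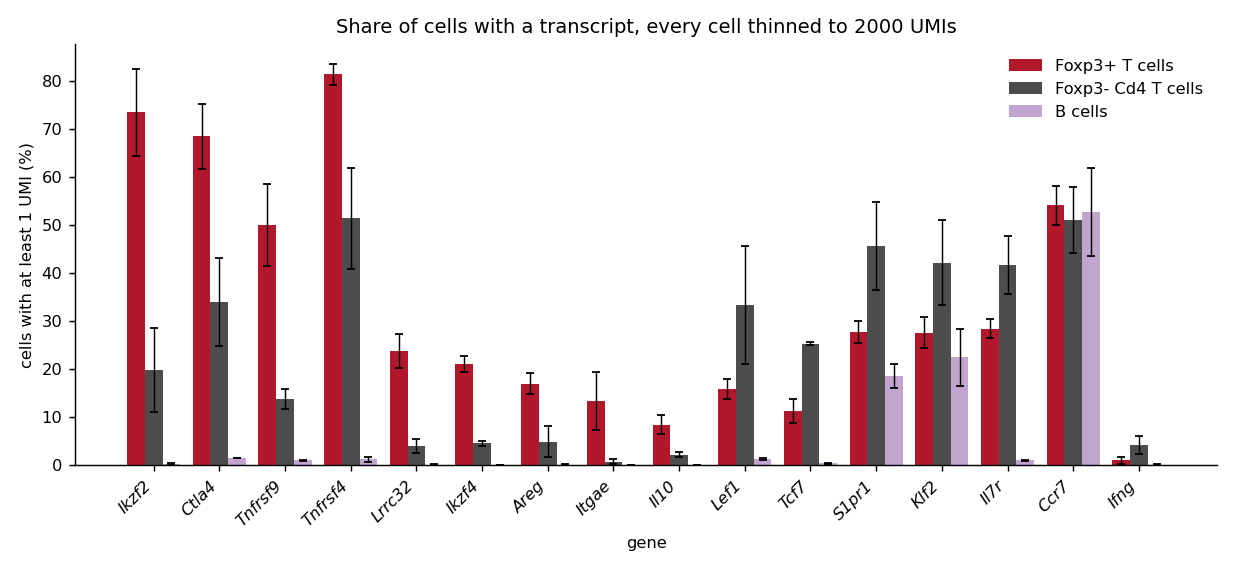
Mean share of cells with at least 1 UMI of each of 16 genes, after thinning every cell to 2000 UMIs, in Foxp3+ T cells, Foxp3- Cd4 T cells and B cells; bars start at 0 and error bars are the SD over 3 libraries. Ikzf2 was in 73.4% of Foxp3+ and 19.8% of Foxp3- Cd4 T cells, and the Ccr7 bars of the 3 populations overlap.

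Against CD8 T cells, 1716 genes were higher in Foxp3+ cells (16.2% of 10587 tested) and 1516 were lower (14.3%). Without replicate 2 there were 1913 calls in place of 3232, without replicate 3 there were 1515 and with no replicate block 1078, and 1315 genes were called whichever replicate was left out. The comparison shares its Foxp3+ sums with the one above, so the values stand side by side. Among genes at 50 CPM or more in the higher population with 1 direction in all 3 libraries, the 5 with the largest increase were Il1rl1 (log2 fold change 5.95), Il10 (5.39), Lrrc32 (4.61), Lyz2 (4.18) and Neb (4.08), and the 5 with the largest decrease were Klrc2 (-5.25), Klrc1 (-4.94), Klre1 (-4.71), Xcl1 (-4.07) and Eomes (-3.65). Klrc1 and Klrc2 encode close relatives among the NKG2 receptors, between which reads can be split, so each value is uncertain. Il10 stood at 2.23, 1.01 and 1.03 CPM in the CD8 T cells, against 53.7, 81.5 and 47.2 in Foxp3+ cells. Eomes, a factor of cytotoxic cells, stood at 7.06, 11.7 and 8.69 in Foxp3+ cells against 122, 95.8 and 103. Of the identity list 11 of 12 genes were higher, of the effector and tissue list 18 of 19, and of the resting list 1 was higher and 11 of 13 lower. These stand beside 16.2% of all genes higher and 14.3% lower. Gzmb was lower than in CD8 T cells (-0.62) and higher than in Foxp3- Cd4 T cells (2.28). Prf1, which encodes perforin, stood at 4.94, 8.44 and 6.52 CPM in Foxp3+ cells against 35.6, 43.3 and 45.6 in CD8 T cells. Markers of other cell types were called here too. Higher were 4 of 11 myeloid genes (Lyz2, Csf1r, Tyrobp and Fcer1g), 2 of 5 endocrine genes (Sst and Ins1) and 1 of 2 acinar and red cell genes (Try5). Of 5 B-cell genes Ighm was higher and Igkc lower, and 2 of 4 NK and gamma-delta genes were lower. In CD8 T cells 1 cell held 2348 of 2914 Igkc UMIs in replicate 1 and 1 cell 4055 of 5293 in replicate 3.

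The Foxp3+ cells were then split by Ikzf2, which 983 carried and 167 did not (24, 54 and 89 cells in replicates 1, 2 and 3). Helios is known to mark most regulatory T cells that arise in the thymus and to stabilize them. The cells without an Ikzf2 UMI were shallower, with medians of 2974.5, 5141.5 and 4860 UMIs against 4052, 6949.5 and 6978, and the summed counts of their libraries were small. Foxp3, which every cell of both sets had to carry, stood at 287, 297 and 289 CPM with Ikzf2 and 344, 266 and 278 without, values that the choice of cells sets in part and that are no result. Across 7179 genes, 114 were higher in Ikzf2+ cells (1.59%) and 90 were lower (1.25%) by the same edgeR test. Without replicate 1 there were 463 calls in place of 204, without replicate 2 there were 131 and without replicate 3 there were 105. Of the 204 genes, 55 were called whichever replicate was left out.

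Ikzf2+ cells were higher in genes of effector and tissue regulatory T cells, with 9 of 16 tested called higher and none lower. In this split 1.59% of all genes were higher and 1.25% lower, the shares to hold against its list counts. Areg stood at 169, 196 and 154 CPM in Ikzf2+ and at 22.9, 27.2 and 23.2 in Ikzf2- Foxp3+ cells (log2 fold change 2.67 ± 0.243, edgeR, adjusted p = 5.25e-06). The groups were far apart in every library. Tnfrsf9 stood at 380, 903 and 719 against 195, 160 and 129 (2.13 ± 0.203, adjusted p = 9.11e-06 by edgeR), Itgae at 102, 76.7 and 57.8 against 22.9, 9.07 and 7.72, and Il1r2, the decoy receptor for interleukin 1, at 64.7, 131 and 135 against 22.9, 36.3 and 13.5. Il1rl1 had 515 UMIs in Ikzf2+ and 2 in Ikzf2- cells, a ratio of pooled levels of 29.5 (counting interval 8.14 to 245). That interval pools the libraries and counts UMIs as if independent, while up to 25 of them lay in 1 Foxp3+ cell. Tmem158 had a log2 fold change of 3.85.
Of the identity list 4 of 11 were higher: Ikzf4 (1.53), Lrrc32 (1.09), Capg (0.97) and Il2rb (0.71). Il2ra stood at 83.5, 50.6 and 49.0 against 0, 57.4 and 48.3 and Ctla4 at 859, 745 and 655 against 723, 396 and 502, and neither passed the test. Suppressive molecules gave 5 of 9 higher, among them Areg, Il10 (1.17), Lag3 (0.98) and Tgfb1 (0.95). Without the 5 Foxp3+ cells rich in Siglech, Il10 (1.09, adjusted p = 0.0809 by edgeR) and Lag3 (0.93, adjusted p = 0.0833) no longer passed the test.

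Resting genes were higher in the Ikzf2- cells, with 6 of 12 lower in Ikzf2+ cells, beside 1.25% of all genes, and none higher. S1pr1 stood at 154, 185 and 188 CPM in Ikzf2+ against 505, 396 and 398 in Ikzf2- cells (log2 fold change -1.33 ± 0.147, edgeR, adjusted p = 4.36e-05). Klf2, a factor that keeps T cells recirculating and drives S1pr1, stood at 182, 211 and 222 against 459, 468 and 419. Lef1 (-1.32) was lower too. The feedback inhibitors Socs3 (-1.05) and Socs1 (-0.80) were also lower in Ikzf2+ cells.

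Of 11 cell cycle genes tested, 6 were higher in Ikzf2+ cells, beside 1.59% of all genes, and none was lower. Pclaf had 565 UMIs in Ikzf2+ cells and 0 in the 167 Ikzf2- cells, at least 21.6-fold higher against a floor of 3 UMIs over the group. Mki67 had 411 and 1 UMIs, a ratio of pooled levels of 47.1 (counting interval 8.41 to 1867). Hist1h1b, a histone gene of a family of close copies whose reads can be split, had 1428 and 2, but with cells thinned before the gates its log2 fold change was -0.27. The Pclaf and Mki67 ratios pool the libraries and count UMIs as if independent. Over all Foxp3+ cells the Mki67 UMIs lay in 88 cells, up to 35 in 1 cell, and those of Pclaf in 71, up to 43. Replicate 1, where both genes were highest in Foxp3+ cells, had the smallest Ikzf2- sum (87190 UMIs). None of the cell cycle calls was left when cells were thinned before the gates or under the study's cell limits, where 4 genes of the list were tested.

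Among genes at 50 CPM or more in the Ikzf2- cells and lower in the Ikzf2+ cells of all 3 libraries, the 5 with the largest decrease were Gbp2b (-3.17), Ctsl (-2.32), Mpeg1 (-2.23), St8sia6 (-1.69) and St8sia1 (-1.63). Gbp2b encodes a guanylate-binding protein of a family of close copies, and Mpeg1 is a macrophage gene. Single cells carried much of 2 of these: in Ikzf2- cells 1 cell held all 12 Mpeg1 UMIs of replicate 1 and 1 cell 32 of 49 in replicate 3, and 1 cell held 34 of 45 Ctsl UMIs in replicate 2 and 1 cell 37 of 79 in replicate 3. Ctsl, which encodes cathepsin L, had a log2 fold change of -1.35 without the 5 cells rich in Siglech. Of 6 myeloid genes tested, Siglech (-3.26) and Tyrobp (-1.50) were lower in Ikzf2+ cells, beside 1.25% of all genes. Both genes overlapped between libraries. The summed myeloid level was 57.3, 335 and 600 CPM in Ikzf2- cells, with Tyrobp the most abundant at 43.3% of it and 2 of the 13 genes at 0, against 87.3, 459 and 165 in Ikzf2+ cells. Of the 5 cells rich in Siglech 2 were Ikzf2-. With these 5 cells left out there were 165 calls and no myeloid gene was called. For Siglech this follows from the choice of cells, which held 119 of its 121 UMIs in Foxp3+ cells.

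**Figure D5:**
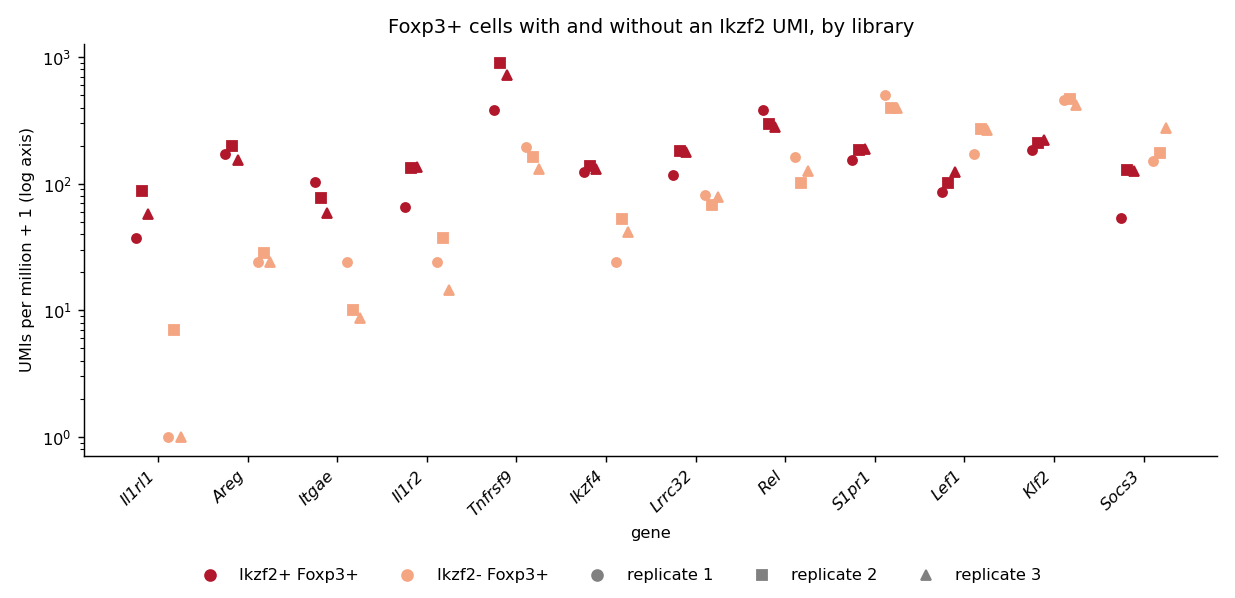
CPM plus 1 (log axis) of 12 genes in the summed Foxp3+ cells with (dark) and without (light) an Ikzf2 UMI, each symbol being 1 replicate. Areg stood at 154 to 196 in Ikzf2+ against 22.9 to 27.2 in Ikzf2- cells, and S1pr1 at 154 to 188 against 396 to 505.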

How the data were processed

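Live CD45+ islet cells of wild-type NOD mice were profiled in 3 droplet libraries. The deposited files hold raw counts (UMIs) of 32285 genes in each cell, which the authors made with Cell Ranger 6.0.1 on mm10 per the labels. No deposited cell annotation was used. Which library belongs to which of the 2 independent experiments is not given in the sources used here. No record says that replicates come from single animals. With the library as a block, p-values weigh a difference against how far within-library differences varied over these pools, not over single mice.

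Cells with at least 1000 UMIs and under 10% mitochondrial UMIs were kept, gated on raw UMIs and summed per library and population. Sums held 1416095 to 18283214 UMIs, and those of the Ikzf2 split 87190 to 4082812. Sums were tested with edgeR 4.0.16 (filterByExpr, TMM, glmQLFit, glmQLFTest) in R 4.3.3 with a block for library. Benjamini-Hochberg adjustment ran over all genes in the fit, with a threshold of 0.05. Foxp3+, Foxp3- Cd4 and CD8 sums shared 1 fit. The 8 genes of the gates, and Ikzf2 in its own split, got no test. The standard error is the log2 fold change divided by the root of the F statistic. Populations were paired by library because each library's cells share their mice. Deviations correlated with r of 0.287 to 0.788 within libraries (9 pairs, mean 0.521). Between libraries r was -0.675 to 0.428 (18 pairs, mean -0.225), so the ranges overlapped. The deviations were taken from each population's mean over the 3 libraries. The negative mean between libraries follows from that centring and is no separate result.

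No doublet caller was run: the rule removes cells with more than 1 Cd79a UMI, and alternatives leave out cells with UMIs of other lineages. Named genes are the 4 markers, the 10 largest called changes each way (5 for the other 2 comparisons) at 50 CPM or more with 1 direction in all 3 libraries, and up to 4 members per gene list. Further members (such as Nrp1, Ccr7, Pdcd1, Igkc, Izumo1r, Lag3, Tnfsf8, Ltb, Foxo1, Bach2, Satb1, Ikzf1, Cxcr3, Ifngr1, Pim1, Cd28 and Casp8) were chosen after their values were seen, and rule-named members that missed the test are mostly given as counts. The members and the 21 lists were chosen with earlier results of these data known. Coordinates are from GENCODE M21 (GRCm38, mm10). Alternatives were RLE normalization, DESeq2 1.42.0, no count filter, no replicate block, each replicate left out, removal of Malat1, mitochondrial and ribosomal genes, a fit of 2 populations, the study's cell limits (200 to 5000 genes, under 6000 UMIs, under 5% mitochondrial, over 5% ribosomal), thinning to 2000 UMIs before the gates, leaving out cells with 2 or more UMIs of 10 B-cell and myeloid genes, at least 2 Foxp3 UMIs, and Foxp3+ cells with Cd4 only.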

Additional observations from a re-analysis of the deposited data

Results flagged for a closer look

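Foxp3 transcripts were also found outside the gate. Of 1792 kept cells with a Foxp3 UMI, 433 (24.2%) carried more than 1 Cd79a UMI. Of the cells that did not, 201 (11.2% of the 1792) carried both a Cd3 and a CD8 UMI and 8 had no Cd3 UMI. After thinning to 2000 UMIs, 1.48% of T cells with a CD8 UMI (77 of 5213) held a Foxp3 UMI, above the 0.0465% of B cells (2 of 4302), and the mean over libraries was 1.47% ± 0.0855 (SD, n = 3). In T cells with 5 or more CD8 UMIs it was 1.64% (20 of 1217). In myeloid cells it was 0.866% (2 of 231). Those 2 cells were in replicate 3, where the myeloid share was 1.87% (2 of 107) against 1.55% of T cells with a CD8 UMI. The B cells and the myeloid cells had to lack Cd3 UMIs, which leaves out those mixed with a T cell. No such limit kept cells mixed with a Foxp3+ T cell out of the T cells with a CD8 UMI, so these shares are not like for like. The 201 cells had median depths of 9014, 13567 and 11921 UMIs in replicates 1, 2 and 3, and the 433 cells of 6788.5, 15362.5 and 13234, against 3964, 6368.5 and 6386 in the gated Foxp3+ cells. The part of doublets in these cells was not tested.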

How the results depend on the processing

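The direction of change was the same for nearly all named genes, while their calls and the counts of calls moved with several settings. With no replicate block 58 of 90 named genes lost their call against Foxp3- Cd4 T cells, and 22 of 73 against CD8 T cells. In the Ikzf2 split 37 of 51 named genes lost it with no replicate block. By DESeq2 25 lost it and 25 stayed the same. With cells thinned before the gates 15 lost it, 21 stayed the same and 2 changed sign. With RLE normalization 3 lost it. For Foxp3+ against Foxp3- Cd4 T cells, 1722 genes were called. Calls numbered 168 with no replicate block (75% of them higher, against 56.6%), 804 with cells thinned before the gates and, in a setting added after the data were seen, 1139 with equal numbers of cells. They ranged from 467 to 2032 with 1 replicate left out. With no filter on low counts the higher calls were 48.3% of 2385. For Foxp3+ against CD8 T cells, 3232 genes were called. Calls numbered 1078 with no replicate block, 1908 under the study's cell limits and 1314 with thinned cells, and 1515 to 3536 with 1 replicate left out. For Ikzf2+ against Ikzf2- cells, 204 genes were called. Calls numbered 73 by DESeq2, 351 with no filter on low counts and 27 with no replicate block, and 105 to 463 with 1 replicate left out. In this comparison the higher share of calls was 38.7% with thinned cells, 70.4% with no filter, 74.1% with no replicate block and 68.6% without replicate 3, against 55.9%. Foxp3+ cells were 3.99% of T cells when thinned before the gates and 3.38% with at least 2 Foxp3 UMIs, against 6.66%, and 5.93 to 7.11% with 1 replicate left out. The cause of these moves was not tested, except that fewer samples or cells enter the fits that leave them out. Calls of all other alternatives lay within 1.5 times of these.

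Of 1421 values for 90 named genes against Foxp3- Cd4 T cells, 9 had the other sign. Nrp1 was 0.47 under the study's cell limits, 0.11 with equal numbers of cells and from -0.20 to 0.037 with 1 replicate left out. Igkc was 0.69 under the study's cell limits and from -0.58 to 0.14 with 1 replicate left out, and against CD8 T cells 0.43 under those limits and 0.15 without cells with B-cell or myeloid UMIs. Tyrobp was -0.24 without those cells and -0.26 against CD8 T cells. With thinned cells Il12rb2 was 0.38 and Rrm2 -0.47, and in the Ikzf2 split Bcl2l11 was 0.11 and Hist1h1b -0.27. Ccr7 was -0.022 for Foxp3+ cells with Cd4 only. Il2ra in the Ikzf2 split ranged from -0.20 to 0.48 with 1 replicate left out. The cause was not tested. The Ikzf2 split rests on few cells, with 24 Ikzf2- cells in replicate 1.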
